A study of Caenorhabditis elegans with 18 samples.

Results

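The 6 *dod* genes described here (*dod-3*, *dod-17*, *dod-19*, *dod-21*, *dod-22* and *dod-24*) take their name from being downstream of DAF-16, and they were chosen by symbol from the 24998 genes of the mRNA-Seq table. All 6 were found in the table, and 5 of them reached the mean normalized count of 10 that the test required, as did 13472 genes in all. *dod-21*, at a mean of 7.27, is described from its read counts. The libraries came from whole day 1 adult hermaphrodites of *C. elegans*, grown at 20 °C on OP50 bacteria at 5000 animals per plate, so every tissue of many pooled animals contributed to each value. There were 5 mutants, namely *lin-29(n333); fbxl-5(rhd43)*, *lin-29(n333)*, *rict-1(mg360); fbxl-5(rhd43)*, *rict-1(mg360)* and *fbxl-5(rhd43)*, and wild-type N2 animals, with 3 libraries each from independent biological replicates, 18 in all. In *rhd43* the F-box gene *fbxl-5* carries a premature stop codon. In *mg360* an amino acid is changed in *rict-1*, which encodes the Rictor subunit of mTORC2, so some function may be left. *lin-29* encodes a zinc finger transcription factor of the heterochronic pathway, which times the larval-to-adult switch of the hypodermis. Each mutation was carried by 1 strain per genotype.

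DAF-16 is the FOXO transcription factor that insulin-like signaling through the DAF-2 receptor, AGE-1 PI3 kinase and the AKT kinases keeps out of the nucleus. Genes downstream of it fall into a class that rises in *daf-2* mutants, to which *dod-3* belongs, and a class that falls in them, to which *dod-17*, *dod-19*, *dod-21*, *dod-22* and *dod-24* belong. Promoters of the class that falls are linked to the transcription factor PQM-1. mTORC2 signals through the kinase SGK-1, and *dod-17*, *dod-21*, *dod-22* and *dod-24* encode proteins with a CUB-like domain, several of which are known as intestinal genes that respond to bacterial infection.

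On the WBcel235 assembly, *dod-3* (WBGene00016052) lies on chromosome V at 2730622-2731098 and *dod-19* (WBGene00022644) on chromosome V at 411782-414759. The other 4 genes lie within 41.6 kb of chromosome IV. *dod-21* (WBGene00007873) stands at 12936738-12937988, *dod-24* (WBGene00007875) at 12940106-12941354, *dod-22* (WBGene00010125) at 12965374-12967392 and *dod-17* (WBGene00010745) at 12976303-12978343. All 6 are annotated as protein coding, and none overlaps another annotated gene.

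The libraries held from 13434120 to 29733059 reads on genes. Values are normalized counts, the reads of a gene divided by the size factor of its library, so counts near 1 stand for about 1 read. Reads on ribosomal RNA genes made up 30.0% of replicate 3 of *fbxl-5*, and no more than 4.49% elsewhere. All 8 intestinal marker genes on a list of 8 were detected in every genotype. Their summed normalized count was between 183548 and 217716 in *rict-1* and between 138546 and 151337 in *rict-1; fbxl-5*, against 56560 to 69453 in wild-type, most of it from *asp-1*. In limma 6 of the 8 were higher in *rict-1* than in wild-type and 0 lower, beside 10.7% and 5.78% of all genes tested. With *fbxl-5* lost, 1 of the 8 was lower in *rict-1; fbxl-5* than in *rict-1* (*ges-1*), beside 1.06% of all genes tested. In *lin-29; fbxl-5* against *lin-29*, 4 of the 8 were lower, beside 4.50%. The 6 hypodermal markers summed to between 15861 and 28887 in *lin-29*, on average most of it from *dpy-13*, against 319 to 447 in wild-type. In *lin-29* against wild-type 4 of the 6 were higher (*dpy-7*, *col-10*, *rol-6* and *dpy-13*). *elt-3* at -0.68 (limma adjusted p = 0.012) and *bli-1* at 0.97 (0.0804) were not called. Of the body wall muscle markers 4 of 4 were higher in *lin-29* than in wild-type, where 22.6% of all genes tested were called higher. None of these markers was at 0 in any genotype. In whole animals, fewer cells of a type and less RNA per cell cannot be told apart.

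**Figure D1:**
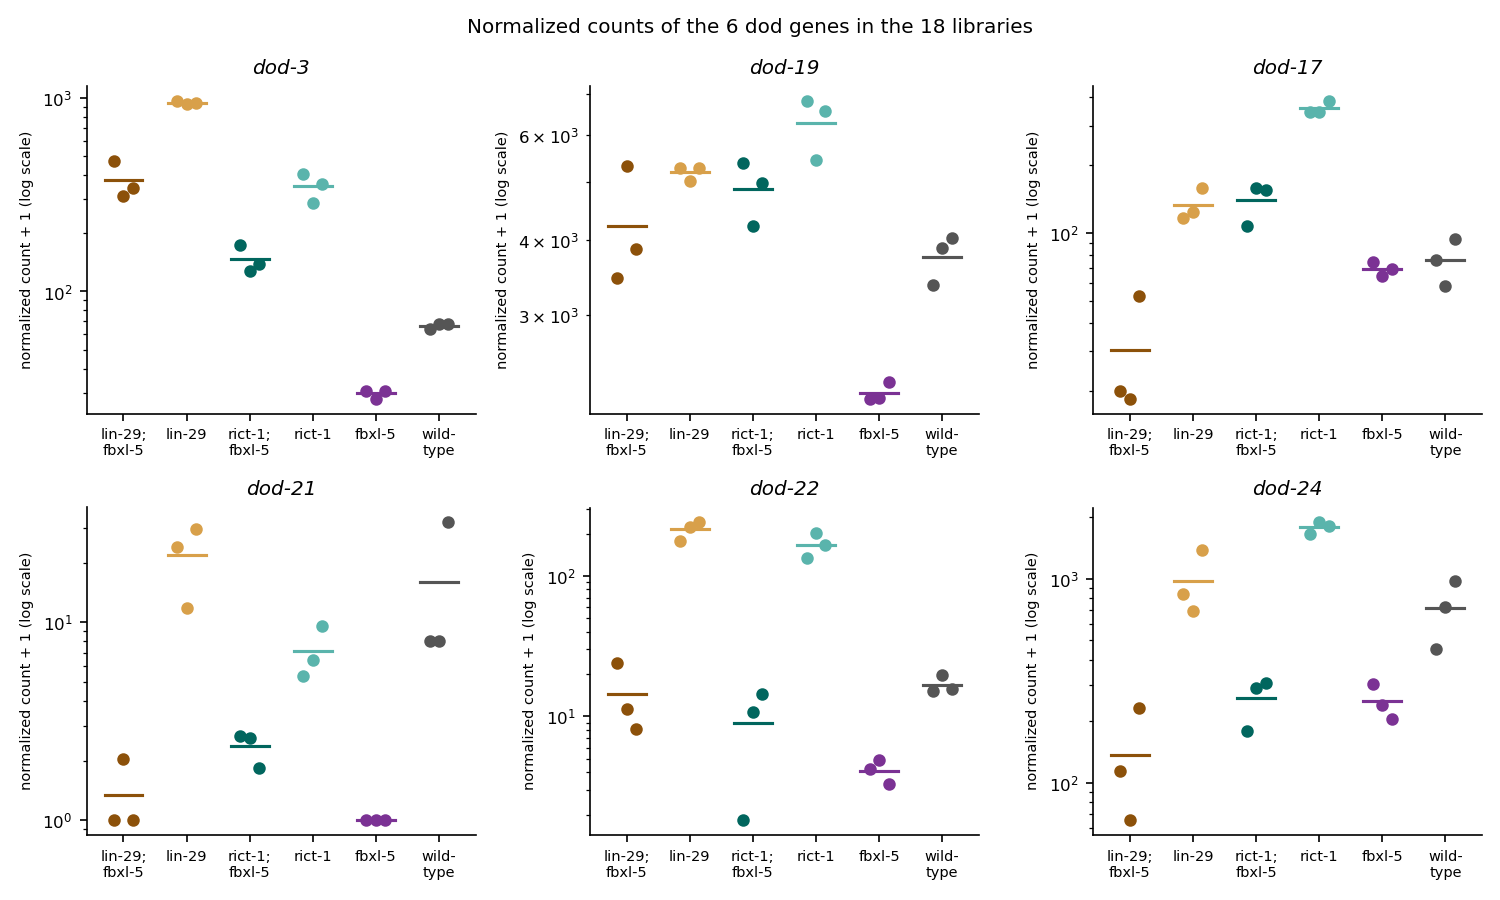
Normalized count plus 1, on a log axis, of each *dod* gene in the 18 libraries. Points are libraries (replicates 1, 2 and 3 left to right), lines are the means of 3, and genotypes are named under the axis. *dod-3* reached between 926 and 963 in *lin-29*, and *dod-21* was at 0 in all 3 *fbxl-5* libraries.

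*dod-3*, the member of the class that DAF-16 activates, was raised in both *lin-29* and *rict-1* and lowered by loss of *fbxl-5* in every background. Its normalized counts in replicates 1, 2 and 3 were 29.7, 27.0 and 29.7 in *fbxl-5*, against 63.2, 66.8 and 67.2 in wild-type. They were 401, 286 and 359 in *rict-1* and 963, 926 and 943 in *lin-29*. The *rict-1; fbxl-5* libraries had 172, 127 and 138, and the *lin-29; fbxl-5* libraries had 469, 312 and 341. No library of *fbxl-5* reached the lowest wild-type library, and every other mutant library lay above the highest one. Between neighbouring genotypes in the order of the means, only *lin-29; fbxl-5* and *rict-1* overlapped.

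The mean of *dod-3* was 14.4 times that of wild-type in *lin-29* (limma log2 fold change 3.82, standard error 0.16, adjusted p = 6.54e-11) and 5.31 times in *rict-1* (log2 fold change 2.38, adjusted p = 3.63e-08). Loss of *fbxl-5* changed *dod-3* by -1.16 on the log2 scale in the wild-type background, by -1.25 in *rict-1* and by -1.36 in *lin-29*, with limma adjusted p-values of 0.000469, 0.000229 and 2.63e-05. The interaction terms, which compare these steps, were -0.09 with *rict-1* (95% interval, as for all intervals here, -0.57 to 0.39, limma adjusted p = 0.893) and -0.19 with *lin-29* (-0.68 to 0.29, adjusted p = 0.692). Both double mutants stayed above wild-type, by 1.12 in *rict-1; fbxl-5* and 2.47 in *lin-29; fbxl-5* on the log2 scale (limma adjusted p = 0.000136 and 1.1e-08). In the 6 libraries of *lin-29; fbxl-5* and *lin-29* fitted alone, the step of -1.36 had an adjusted p of 0.0107.

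*dod-19*, of the class that falls in *daf-2* mutants, was the most abundant *dod* gene per kilobase of exon, and its changes were the smallest of the 5 genes tested in *rict-1* against wild-type. Its mean level per kilobase of exon in wild-type was 2687 normalized counts, followed by *dod-24* at 621. The normalized counts of *dod-19* were 2170.4, 2173 and 2313 in *fbxl-5*, against 3361, 3869 and 4022 in wild-type. They were 6829, 5446 and 6574 in *rict-1* and 5281, 5013 and 5271 in *lin-29*. In the double mutants they were 5371, 4226 and 4982 in *rict-1; fbxl-5* and 3457, 5317 and 3861 in *lin-29; fbxl-5*. The *fbxl-5* libraries lay below all others, and *lin-29; fbxl-5* overlapped wild-type.

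*dod-19* fell in *fbxl-5* (log2 fold change -0.75, standard error 0.13, limma adjusted p = 0.00279) and rose in *rict-1* (0.74, adjusted p = 6e-04). Its rise in *lin-29* was 0.47 (adjusted p = 0.00731). The steps at loss of *fbxl-5* were -0.37 within *rict-1* (interval -0.66 to -0.09, adjusted p = 0.192) and -0.33 within *lin-29* (-0.61 to -0.04, adjusted p = 0.142), neither past the threshold. Within the *fbxl-5* background *dod-19* rose with mutation of *rict-1* (1.12, adjusted p = 2.58e-05) and of *lin-29* (0.90, adjusted p = 4.38e-05). The call in *fbxl-5* was lost without wild-type replicate 2 or 3 or without any 1 *fbxl-5* library (adjusted p between 0.0101 and 0.0217). The call in *lin-29* was lost without each of its 6 libraries in turn (0.0103 to 0.0411).

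*dod-22*, one of the CUB-like genes, spanned the widest range of log2 fold changes of the 5 genes tested. Its normalized counts were 177, 223 and 239 in *lin-29* and 133, 199.99 and 165 in *rict-1*, against 14.0, 18.7 and 14.5 in wild-type. They were 23.0, 10.2 and 7.19 in *lin-29; fbxl-5* and 0.826, 9.68 and 13.5 in *rict-1; fbxl-5*. In *fbxl-5* alone they were 3.21, 3.85 and 2.29, from 10 reads in the 3 libraries. Every *lin-29* and *rict-1* library lay far above every library of the other 4 genotypes, and all *fbxl-5* libraries lay below all wild-type libraries.

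On the ratio of means *dod-22* was 13.5-fold higher in *lin-29* and 10.5-fold higher in *rict-1* than in wild-type (limma log2 fold change 3.67, adjusted p = 4.44e-05, and 3.31, adjusted p = 0.000333, standard error 0.56). Loss of *fbxl-5* changed it by -4.65 within *rict-1* (interval -5.84 to -3.46, adjusted p = 0.000142) and by -4.03 within *lin-29* (-5.22 to -2.84, adjusted p = 0.000122). Against wild-type the double mutants did not pass the threshold, with -1.34 in *rict-1; fbxl-5* (adjusted p = 0.0956) and -0.35 in *lin-29; fbxl-5* (adjusted p = 0.619). Replicate 1 of *rict-1; fbxl-5* held 1 read of *dod-22*, and without it the difference from wild-type was -0.42 and the step within *rict-1* was -3.73 (adjusted p = 6.87e-05). The difference of *fbxl-5* from wild-type, -2.03 (interval -3.22 to -0.84), had an adjusted p of 0.0348 in limma, 0.00305 in DESeq2 and 0.00101 in limma on those 6 libraries alone.

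*dod-24*, also CUB-like, was the most abundant of the 4 *dod* genes on chromosome IV per kilobase of exon. Its normalized counts were 1660.5, 1883 and 1808 in *rict-1*, 837, 692 and 1375 in *lin-29* and 304, 239.9 and 205 in *fbxl-5*, against 451, 728 and 976 in wild-type. They were 178, 289.6 and 306 in *rict-1; fbxl-5* and 114, 64.6 and 230.0 in *lin-29; fbxl-5*. Every library with the *fbxl-5* mutation lay below every library without it, whichever other mutation was present. The wild-type libraries spread by more than 2-fold.

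Loss of *fbxl-5* changed *dod-24* by -2.83 on the log2 scale within *rict-1* (6.93-fold lower on the means, limma adjusted p = 0.000676) and by -2.95 within *lin-29* (7.12-fold lower, adjusted p = 0.000122). The difference of *fbxl-5* from wild-type was -1.47 (interval -2.31 to -0.64, adjusted p = 0.0315), and DESeq2 gave an adjusted p of 0.000736. *rict-1* was 2.48-fold above wild-type on the means (1.38, adjusted p = 0.0156), which passed the threshold in edgeR (0.00924) and DESeq2 (0.00139). *lin-29* overlapped wild-type (0.44, interval -0.40 to 1.27, adjusted p = 0.359). *lin-29; fbxl-5* was below wild-type (-2.51, adjusted p = 8.78e-05). Between *rict-1; fbxl-5* and *fbxl-5* the difference was 0.03 (-0.81 to 0.86, adjusted p = 0.972), and the 2 genotypes overlapped.

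*dod-17*, the third CUB-like gene tested, was the only one of the 5 whose *fbxl-5* and wild-type libraries overlapped. It had 73.1, 63.6 and 68.6 normalized counts in *fbxl-5*, against 74.9, 57.4 and 92.7 in wild-type (limma log2 fold change -0.11, interval -0.75 to 0.54, adjusted p = 0.876). It had 342, 343 and 385 in *rict-1*, and 107, 157 and 154 in *rict-1; fbxl-5*. The *lin-29* libraries had 115, 122 and 158, and the *lin-29; fbxl-5* libraries 18.9, 17.4 and 51.8, the lowest of all genotypes. Replicate 3 was the highest of the *lin-29; fbxl-5* libraries for *dod-17*, as it was for *dod-24*.

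*dod-17* rose in *rict-1* (2.26, standard error 0.31, limma adjusted p = 4.23e-05) and missed the threshold in *lin-29* (0.82, adjusted p = 0.0326). It fell with loss of *fbxl-5* within *lin-29* (-2.29, adjusted p = 8.17e-05). Within *rict-1* the difference was -1.37 with an adjusted p of 0.0191. With the replicate block, whose numbers were taken to pair these libraries, the adjusted p was 0.00659, past the threshold. edgeR (0.00878) and DESeq2 (6.44e-06) also put it past the threshold. The *lin-29; fbxl-5* mutant was below wild-type (-1.47, adjusted p = 0.000766) and below *fbxl-5* (-1.37, adjusted p = 0.00156, and 0.012 without *lin-29; fbxl-5* replicate 2). With 6 libraries in the fit, the *lin-29; fbxl-5* differences of *dod-17* from *lin-29* and from wild-type had adjusted p-values of 0.0539 and 0.02, and that of *dod-24* from *lin-29* had 0.0244.

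*dod-21* was the least abundant *dod* gene, and its reads were near absent wherever *fbxl-5* was mutated. It had 0 reads in each of the 3 *fbxl-5* libraries, against 6, 6 and 34 reads in wild-type. It had 25, 12 and 19 reads in *lin-29* and 5, 7 and 10 in *rict-1*. The *lin-29; fbxl-5* libraries held 0, 1 and 0 reads, and the *rict-1; fbxl-5* libraries held 2, 2 and 1. No library with the *fbxl-5* mutation reached the lowest library without it.

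Taking 3 reads over the 3 libraries as the floor, *dod-21* was at least 15.8-fold lower in *fbxl-5* than in wild-type, and at least 7.39-fold lower without wild-type replicate 3, a setting chosen after seeing the data. A limma fit without the filter on low counts gave *dod-21* an adjusted p of 0.000613 for *fbxl-5* against wild-type, 7.97e-05 for *lin-29; fbxl-5* against *lin-29* and 0.232 for *rict-1; fbxl-5* against *rict-1*. Unlike the other 5 genes, *dod-21* had a lower mean in *rict-1* (6.14 ± 2.20 normalized counts, SD, n = 3) than in wild-type (14.98 ± 13.8). That difference did not pass the test (adjusted p = 0.349), and the wild-type mean rested on replicate 3.

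**Figure D2:**
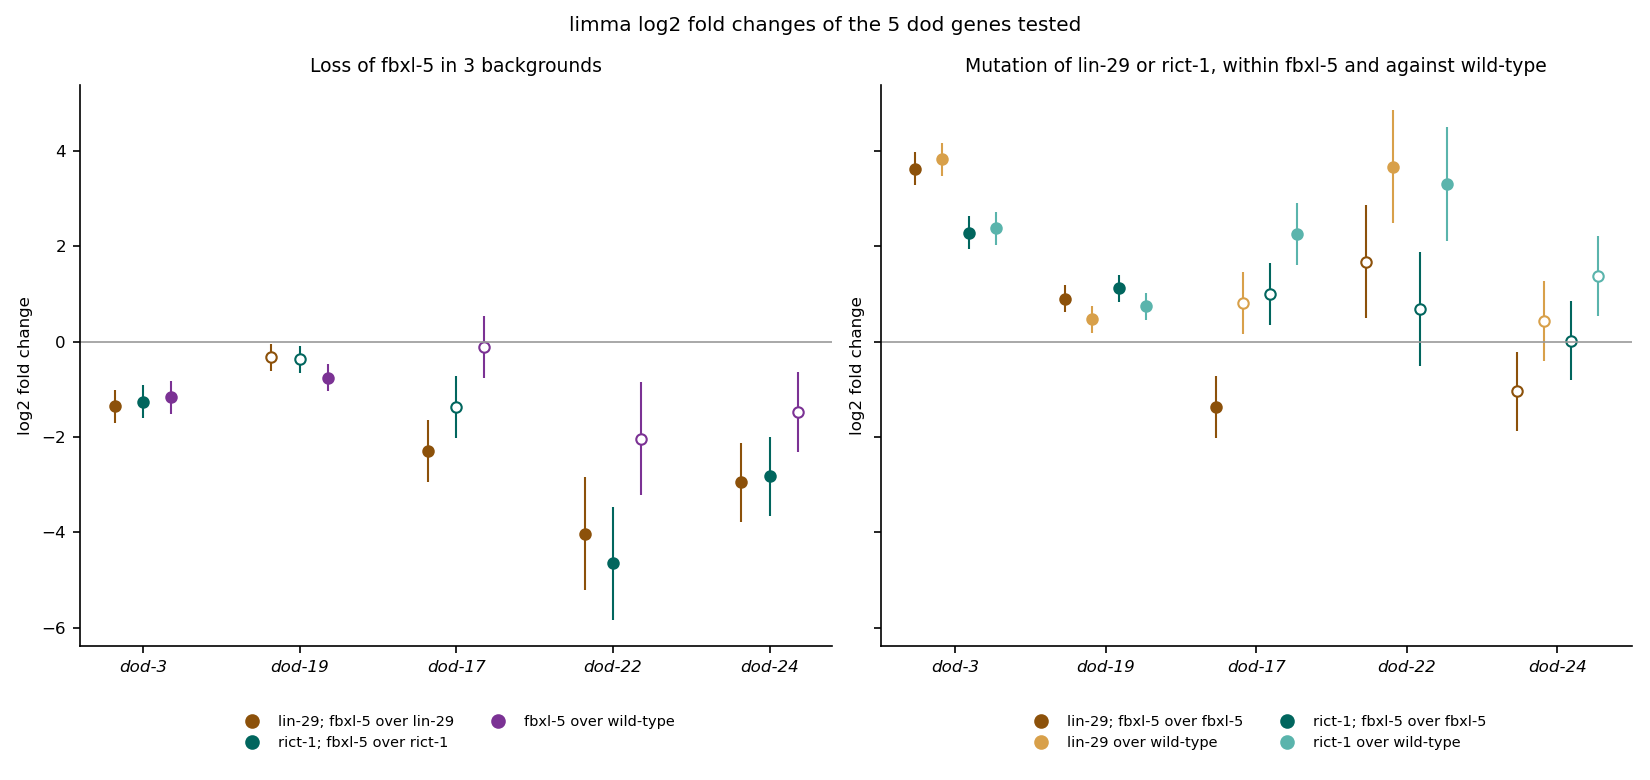
limma log2 fold changes of the 5 *dod* genes tested, with 95% confidence intervals as bars. Filled points passed the 1% FDR, and colours name the comparison. In the left panel all 15 points lie below 0, and in the right panel the *dod-3* points lie between 2.29 and 3.82.

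Whether the *dod* genes moved together was read from the number called in each comparison beside the share of all genes tested that was called. Genes were called at 1% FDR in limma with Benjamini-Hochberg adjustment. All shares are those of this fit over 18 libraries, so counts from other fits have no share of their own beside them. In *fbxl-5* against wild-type 2 of the 5 genes tested were lower (*dod-3* and *dod-19*) and 0 higher, where 1.97% of all genes were called lower and 0.586% higher. The median log2 fold change of the 5 was -1.16, against -0.02 over all genes tested. DESeq2 called 4 of the 5 lower, and the exception was *dod-17*.

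In the other 2 backgrounds, genes of the chromosome IV cluster were among those called. In *rict-1; fbxl-5* against *rict-1*, 3 of the 5 were lower (*dod-3*, *dod-22* and *dod-24*) and 0 higher, where 1.06% of all genes were called lower and 0.327% higher. With the replicate block, as with edgeR and DESeq2, *dod-17* was called as well, 4 of the 5. The median of the 5 was -1.37, against 0.01 over all genes tested. In *lin-29; fbxl-5* against *lin-29*, 4 of the 5 were lower, all except *dod-19*, where 4.50% of all genes were called lower and 1.32% higher, and the median was -2.29, against -0.03. The 8 intestinal markers summed to between 32677 and 82333 in *lin-29; fbxl-5* and between 55977 and 74337 in *lin-29*, on average mostly from *asp-1*. *asp-1* itself was not called (-0.24). The 4 that were lower were *vha-6* (-1.49), *ges-1* (-1.47), *pept-1* (-1.26) and *ifb-2* (-0.81). Their part in the result for the *dod* genes was not tested. With only those 6 libraries in the fit, 1 of the 5 was called (*dod-22*).

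In *rict-1* against wild-type 4 of the 5 were higher, all except *dod-24*, and 0 lower, where 10.7% of all genes were called higher and 5.78% lower. The median of the 5 was 2.26, against -0.03 over all genes tested. The intestinal marker sum was also higher in *rict-1* (given above), and its part in this result was not tested. In *lin-29* against wild-type 3 of the 5 were higher (*dod-3*, *dod-19* and *dod-22*), where 22.6% of all genes were called higher and 18.4% lower. The median of the 5 was 0.82, against -0.01. Of the 8 intestinal markers 3 were higher in *lin-29* than in wild-type (*elt-7* 1.28, *ges-1* 0.90 and *ifb-2* 1.41) and 0 lower, and the part of these and of the higher hypodermal and muscle markers was not tested. The 3 single mutants were set against the same wild-type libraries, and the *rict-1* and *lin-29* libraries enter both their own comparison with wild-type and the comparison with their double mutant.

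Set directly against *lin-29*, *rict-1* had less *dod-3* (-1.45, limma adjusted p = 2.91e-06) and more *dod-17* (1.44, adjusted p = 0.00116), where 31.4% of all genes were called in either direction. For *dod-22* the difference was -0.36 (interval -1.55 to 0.83, adjusted p = 0.625).

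Between the double mutants and *fbxl-5*, *dod-3* and *dod-19* were called higher in limma in both comparisons. In *rict-1; fbxl-5* against *fbxl-5*, *dod-3* (2.29, limma adjusted p = 1.47e-07) and *dod-19* were higher and 0 of the 5 lower, where 6.93% of all genes were called higher and 3.04% lower. *dod-22* (0.69, adjusted p = 0.425) and *dod-17* (0.99, adjusted p = 0.0305) did not pass, though DESeq2 called *dod-17* (0.00109). In *lin-29; fbxl-5* against *fbxl-5*, *dod-3* (3.63, adjusted p = 1.69e-10) and *dod-19* were higher and *dod-17* lower, where 19.6% of all genes were called higher and 15.9% lower. *dod-22* was at 1.68, its libraries not overlapping (adjusted p = 0.0202 in limma and 0.00222 in DESeq2). *dod-24* was at -1.04 (adjusted p = 0.0372), and at -1.51 without *lin-29; fbxl-5* replicate 3, which passed the threshold (adjusted p = 0.00275).

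Against wild-type, 1 of the 5 was called in *rict-1; fbxl-5* (*dod-3*, higher), where 7.36% of all genes were called higher and 3.56% lower. In *lin-29; fbxl-5* 1 was higher (*dod-3*) and 2 were lower (*dod-17* and *dod-24*), where 19.5% of all genes were called higher and 19.5% lower.

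The interaction terms asked whether the step at loss of *fbxl-5* differed between backgrounds. With *rict-1*, 0 of the 5 passed in limma (0.631% of all genes positive and 0.223% negative), 3 had an unadjusted p under 0.05 and 0 passed in edgeR or DESeq2. Those 3 were the cluster genes, at -1.27 for *dod-17* (adjusted p = 0.126), -2.62 for *dod-22* (0.0828, and -1.69 without *rict-1; fbxl-5* replicate 1) and -1.35 for *dod-24* (0.212). With *lin-29*, 1 of the 5 passed (*dod-17*, -2.19, adjusted p = 0.00622), where 0.713% of all genes were positive and 1.68% negative. There 4 of the 5 had an unadjusted p under 0.05. Besides *dod-17* these were *dod-22* at -1.99 (adjusted p = 0.151), *dod-24* at -1.48 (0.128) and *dod-19*, which did not pass. *dod-19* had the opposite sign, at 0.43 with *lin-29* (adjusted p = 0.2) and 0.38 with *rict-1* (0.316). The *dod-17* call was lost in edgeR (adjusted p = 0.0102) and without any 1 of 10 of the 12 libraries (0.0106 to 0.0207), and it held without wild-type replicate 3 (0.00868) and without *lin-29; fbxl-5* replicate 3 (2.11e-05).

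**Figure D3:**
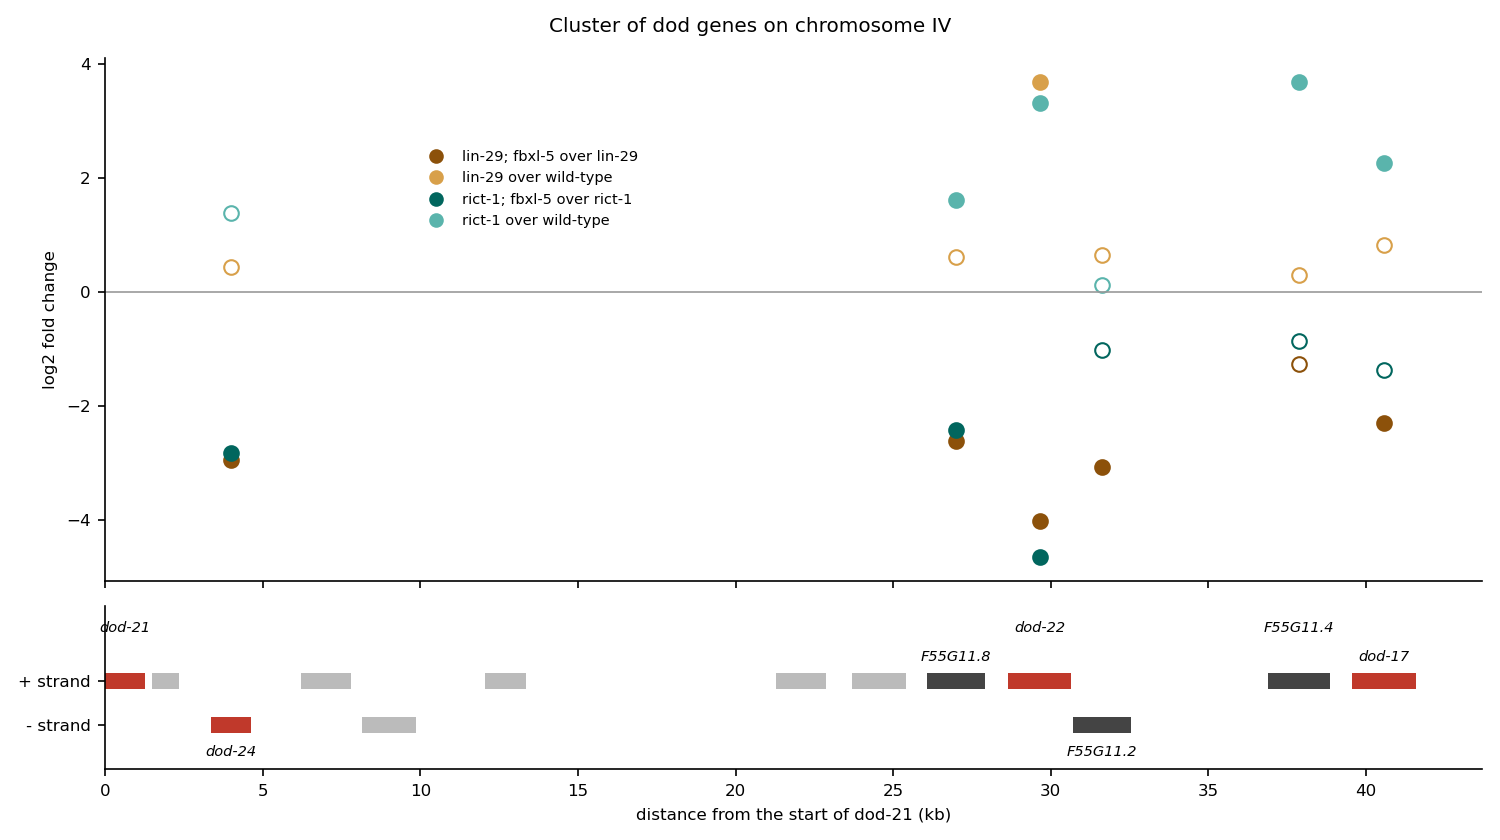
The chromosome IV cluster, with distance in kb from the start of *dod-21* on the x axis. The upper panel gives the limma log2 fold change of each gene tested in 4 comparisons (filled points passed 1% FDR). The lower panel draws the 13 protein-coding genes by strand, with *dod* genes in red, other genes tested in dark grey and genes not tested in light grey. *F55G11.8*, next to *dod-22*, lies at -2.42 and -2.62 in the comparisons of loss of *fbxl-5*.

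The stretch of chromosome IV from *dod-21* to *dod-17* holds 13 protein-coding genes, of which 6 were tested: 3 *dod* genes, *F55G11.8*, *F55G11.2* and *F55G11.4*. *F55G11.8* rose in *rict-1* and fell with loss of *fbxl-5* in both mutant backgrounds. Its mean was 514 ± 90.4 normalized counts in *rict-1*, against 167 ± 27.8 in wild-type (SD, n = 3 each). Loss of *fbxl-5* changed *F55G11.8* by -2.42 within *rict-1* and by -2.62 within *lin-29*, both past the threshold in limma. *F55G11.4*, beside *dod-17*, rose by 3.68 in *rict-1* and was not called with loss of *fbxl-5* in any background. Its libraries varied widely, with 597 ± 877 normalized counts in *lin-29; fbxl-5* (SD, n = 3). Its mean was 3329 in *rict-1; fbxl-5*, against 6089 in *rict-1*, so the missing calls do not show that *F55G11.4* was unchanged. *F55G11.2*, only 52 bases from *dod-22*, was not called in *rict-1* or *lin-29* against wild-type and fell by 3.07 in *lin-29; fbxl-5* against *lin-29*, so adjacent genes did not all follow 1 pattern.

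The 2 nearest tested genes to either side of each *dod* gene, the 6 *dod* genes left out, were 15 in all and included the 3 above. Their distances from the *dod* gene ranged from 52 to 50840 bases, so not all were adjacent to it. In *rict-1* against wild-type 6 of these 15 were higher and 2 lower, beside 10.7% and 5.78% of all genes tested. *irg-8*, 1110 bases from *dod-19*, was lower in *rict-1* (-1.45), where *dod-19* was higher. *K10D11.2*, 642 bases from *dod-17*, was higher in *rict-1* (6.75) and lower in *rict-1; fbxl-5* against *rict-1* (-5.16). With loss of *fbxl-5* 3 of the 15 were lower within *rict-1*, 5 within *lin-29* and 0 in the wild-type background, beside 1.06%, 4.50% and 1.97% of all genes tested, and none was higher.

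Genes whose pattern was most like that of each member over the 18 libraries were found by Pearson's r of log2(normalized count + 1), among genes with a mean of at least 100. Libraries of a genotype share that genotype, so r mostly reflects the 6 genotype means, and it is given as a description. *dod-24* was most like its cluster neighbour *F55G11.8* (r = 0.97) and the infection response gene *C17H12.8* (0.95). *dod-3* was most like *tent-5* (0.98) and *pnp-1* (0.98), and *dod-17* most like *nspg-7.1* (0.98) and *ugt-23* (0.97). *dod-19* was most like *W06H8.6* and *C29F7.2* (both 0.95), *dod-22* like *Y48A6B.7* (0.91) and *aagr-1* (0.90), and *dod-21* like *nhr-137* (0.91) and *ivns-1* (0.89). No *dod* gene shared its nearest genes with another.

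**Figure D4:**
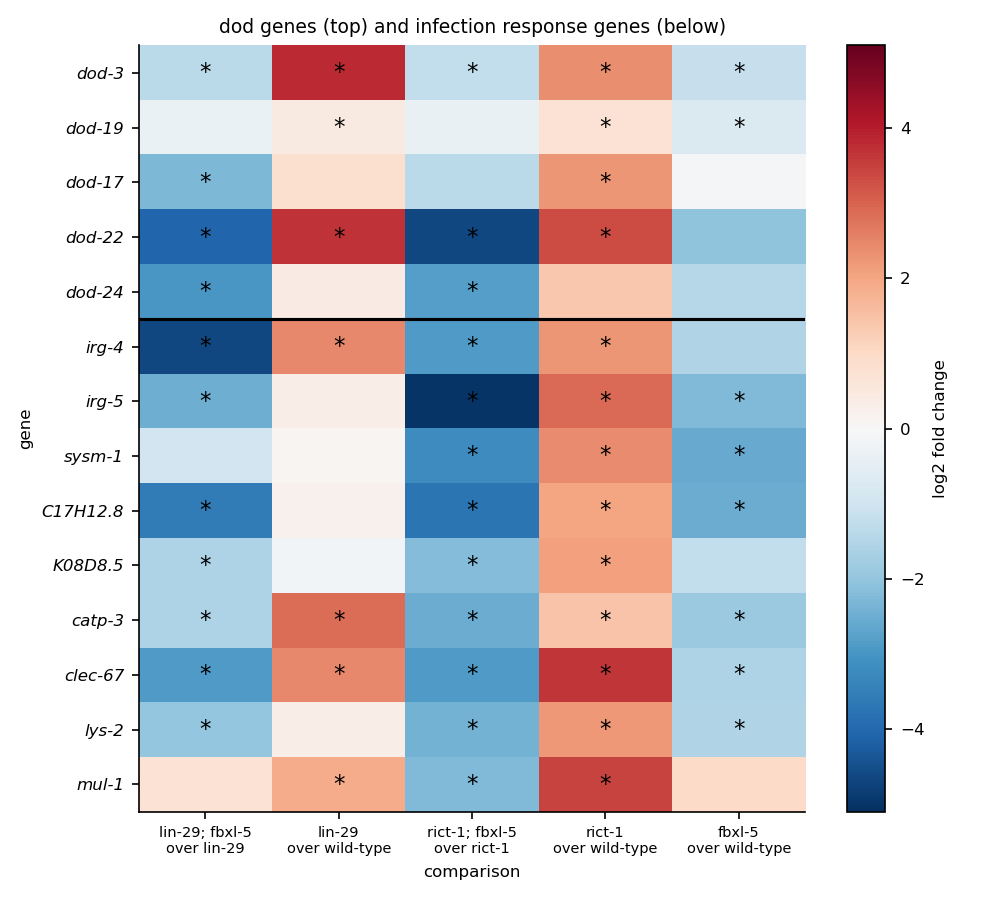
limma log2 fold changes of the 5 *dod* genes tested and of 9 infection response genes, with genes down the page and comparisons across. Colour gives the log2 fold change and an asterisk a call at 1% FDR. The 9 genes were chosen with earlier results of these data known. In *rict-1* over wild-type all 9 infection response genes were called higher, and in *rict-1; fbxl-5* over *rict-1* all 9 were called lower.

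A list of 9 other intestinal genes known to respond to infection, among them *irg-4*, *irg-5*, *lys-2* and *clec-67*, was set beside the CUB-like *dod* genes. The list was chosen with earlier results of these data known, so its counts are a description and no independent support. In *rict-1* against wild-type 9 of 9 were higher, with a median log2 fold change of 2.27. In *rict-1; fbxl-5* against *rict-1* 9 of 9 were lower (median -2.87), as were 7 of 9 in *lin-29; fbxl-5* against *lin-29* (median -1.99). In *fbxl-5* against wild-type 6 of 9 were lower and 0 higher (median -1.59), and in *lin-29* against wild-type 4 of 9 were higher (median 0.35). The medians over all genes tested lay between -0.04 and 0.02 in all comparisons, and the shares called are those given above.

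The insulin and mTORC2 pathway itself was measured through 14 genes, all tested. None of them was called in *fbxl-5* against wild-type or in *rict-1; fbxl-5* against *rict-1*. Of all genes tested only 2.56% and 1.39% were called in either direction there, so a count of 0 is near those shares. *pqm-1*, the transcription factor linked to the class that falls in *daf-2* mutants, was higher in *lin-29* (2138 normalized counts on average) and *rict-1* (1259) than in wild-type (395). Its log2 fold changes were 2.42 and 1.68. It was also called higher than in wild-type in the double mutants, by 1.84 in *lin-29; fbxl-5* and 1.26 in *rict-1; fbxl-5*. *sgk-1*, the kinase downstream of mTORC2, rose by 1.00 in *lin-29* and 0.89 in *rict-1*, and *akt-2* by 1.18 and 0.77. *daf-16* and *daf-2* were not called in any of these comparisons with wild-type. In *lin-29* 5 of the 14 were lower (*daf-18* -0.67, *pdk-1* -0.56, *aap-1* -0.50, *akt-1* -0.27 and *mlst-8* -0.25), beside 18.4% of all genes tested. In *rict-1* 3 of the 14 were lower (*age-1* -0.61, *daf-18* -0.46 and *akt-1* -0.33), beside 5.78%. Higher were 3 of the 14 in each, beside 22.6% in *lin-29* and 10.7% in *rict-1*. With loss of *fbxl-5*, only *sgk-1* was called, within *lin-29* (-0.70), beside 5.82% of all genes tested called in either direction. Of 6 genes of the p38 MAP kinase pathway, which drives intestinal immune genes, the phosphatase gene *vhp-1* was higher in *rict-1* (0.94). In *lin-29* 3 were higher (*vhp-1* 1.78, *tir-1* 1.35 and *pmk-1* 0.48), and the shares were the same 10.7% and 22.6%. *pmk-1* was lower in *lin-29; fbxl-5* against *lin-29* (-0.66), beside 4.50% of all genes tested.

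Other genes that DAF-16 activates were listed as 17. Of these 16 were in the table and 14 tested, and 3 were higher and 4 lower in *rict-1* against wild-type, beside 10.7% and 5.78% of all genes tested, with the iron storage gene *ftn-1* at 2.93 and the desaturase gene *fat-7* at -3.55. In *lin-29* 5 were higher and 2 lower, beside 22.6% and 18.4% of all genes tested, with *ftn-1* at 4.67 and the metallothionein gene *mtl-1* at 3.32. In *fbxl-5* 2 were lower (*hsp-16.41* and *fat-5*) and 0 higher, with a median of -0.26, beside 1.97% and 0.586% of all genes tested. With loss of *fbxl-5*, 2 were lower within *rict-1* (*ctl-2* and *fat-5*) and 2 within *lin-29* (*ctl-2* and *spp-1*), beside 1.06% and 4.50%. The called genes were thus not the same 2 in each background, though *fat-5* and *ctl-2* were each called in 2 of them. The interaction terms of *fat-5* did not pass in limma (adjusted p = 0.537 with *rict-1* and 0.14 with *lin-29*). Those that passed were *fat-7* with *rict-1* (2.20), and *hsp-16.41* (4.44) and *ctl-2* (-0.66) with *lin-29*.

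The table also held 4 further *dod* genes (*dod-6*, *dod-18*, *dod-20* and *dod-23*), all tested. None was called in *fbxl-5* against wild-type or in *rict-1; fbxl-5* against *rict-1*, where 2.56% and 1.39% of all genes tested were called in either direction. In *fbxl-5* against wild-type *dod-6* was at -1.65 (limma adjusted p = 0.0679) and *dod-23* at 0.60 (0.0293). *dod-18* was at -0.19 and *dod-20* at 0.07. *dod-23* had a mean of 4341 normalized counts in *rict-1* and 659.8 in *lin-29*, against 2398 in wild-type, so it was higher in *rict-1* (0.86) and lower in *lin-29* (-1.87). Where *dod-17*, *dod-22* and *dod-24* fell, *dod-23* rose in *lin-29; fbxl-5* against *lin-29* (2.00). *dod-6*, *dod-18* and *dod-20* were not called in these comparisons. By the change of *dod-23*, the *dod* genes as a family did not change in 1 direction.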

How the data were processed

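TruSeq mRNA libraries were sequenced as single-end reads, aligned to WS260 and counted per gene by the authors, whose processing notes name STAR, featureCounts, Subread and DESeq2. How reads matching more than 1 gene were counted is not given in the sources used here. The authors deposited normalized counts, a signal equal to each library's read counts divided by its DESeq2 size factor. They also deposited tables of their own comparisons (fold changes and p-values), not used here. Of the deposited values 100% were whole multiples of 1 read (tolerance 0.001 reads), so reads were recovered. Per-sample columns left without a sample numbered 0.

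The 13472 genes with a mean of at least 10 were fitted as log2(normalized count + 1) with limma 3.58.1 (R 4.3.3, trend and robust), with 1 mean per genotype over all 18 libraries. Benjamini-Hochberg adjustment covered all genes tested, and calls were made at an FDR of 0.01, as in the study's methods. For genes with few reads, values on this scale depend on the pseudocount and can differ from the ratio of means in either direction. The computation was tested on simulated data. Alternatives were edgeR 4.0.16 and DESeq2 1.42.0 on recovered reads, TMM, pseudocounts of 0.5 and 10, no filter, a mean of at least 100, only the genotypes compared, no trend or robust prior, an FDR of 0.05, a replicate block and leaving out each library.

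Same-numbered libraries of *rict-1; fbxl-5* and *rict-1* deviated together (r = 0.65, 0.39 and 0.24 for replicates 1, 2 and 3, across genes), so the numbers were taken to pair them. The main fit left this pairing out. The replicate block gave each replicate number the same effect in all 6 genotypes, not in these 2 alone. Libraries with different numbers were not compared. This comes from the values, not the labels, and none of the other 9 pairs of genotypes checked had all 3 above 0.1. Symbols and positions came from the WBcel235 annotation, whose assembly WS260 uses. Named were all 6 *dod* genes, the 2 genes most like each (r, mean of at least 100), and the called genes of the insulin and mTORC2, p38 and further *dod* lists in the single mutants and at loss of *fbxl-5*. Other named genes of the lists and neighbourhood were chosen after their values were seen. The *dod* genes and the lists were chosen with earlier results of these data known.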

Additional observations from a re-analysis of the deposited data

Results flagged for a closer look

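The step of *dod-17* at loss of *fbxl-5* differed between backgrounds by an interaction test, with an interaction term of -2.19 on the log2 scale (standard error 0.43, limma adjusted p = 0.00622). The step was -2.29 within *lin-29*, all 3 double mutant libraries lying below all 3 *lin-29* libraries, and -0.11 in the wild-type background, where the libraries overlapped. Over 23 alternative settings the term lay between -2.67 and -1.85 and its adjusted p between 2.11e-05 and 0.0305, and it passed the threshold in 10 of them.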

How the results depend on the processing

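Of 216 recounts of the called *dod* genes, 186 stayed within 1.5 times the count given in the report. The share of all genes called under each setting is not given beside these recounts. The count in *fbxl-5* against wild-type was 2, and it was 4 with DESeq2, 4 at an FDR of 0.05 and between 1 and 2 with each library left out. In *rict-1; fbxl-5* against wild-type it was 1, and 2 with edgeR, 2 without the filter, 3 with DESeq2, 3 at an FDR of 0.05 and 3 with only the genotypes compared. In *lin-29; fbxl-5* it was 1 against *lin-29* (4 in the report) with only the genotypes compared, and 5 against *fbxl-5* (3 in the report) at an FDR of 0.05. The interaction with *lin-29* had 0 calls with edgeR, without trend and robust prior and with only the genotypes compared, 2 with a pseudocount of 10, and between 0 and 1 with each library left out. The interaction with *rict-1* had 1 call with a pseudocount of 10 and 1 with only the genotypes compared. The replicate block left the count in *rict-1; fbxl-5* against *rict-1* at 4 rather than 3, by adding *dod-17*. TMM moved the median of all genes by at most 0.05. The causes were not tested.

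Signs turned only for values near 0, with libraries left out. *dod-17* in *fbxl-5* against wild-type lay between -0.28 and 0.059 (0.059 without wild-type replicate 3), *dod-19* in *lin-29; fbxl-5* against wild-type between -0.034 (without *lin-29; fbxl-5* replicate 2) and 0.28, and *dod-24* in *rict-1; fbxl-5* against *fbxl-5* between -0.12 and 0.27 (below 0 without *fbxl-5* replicate 3 or *rict-1; fbxl-5* replicate 2 or 3). The interaction of *dod-3* with *rict-1* lay between -0.22 and 0.018 (above 0 without *rict-1* replicate 1 or *rict-1; fbxl-5* replicate 2). Depth limits *dod-21* and *dod-22*, which rest on few reads wherever *fbxl-5* was mutated.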
